A study of Mus with 8 samples.

Results

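The 38 genes described here are the transcription factor NRF2 (gene Nfe2l2), the proteins that set its level, and the antioxidant and detoxifying enzymes that NRF2 is best known to induce or that remove peroxides and superoxide. They were chosen by name: a probe set counted as a member if its gene symbol was exactly a listed one. Of the 38 listed genes, 37 were found, among 21154 gene symbols in all, and each of the 37 had 1 probe set with that symbol alone. The only probe set of Tkt, which encodes the pentose phosphate enzyme transketolase, also named a microRNA gene and was left out. A second probe set named Ftl1 together with other genes and was not used.

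RNA of RAW264 cells, a macrophage-like mouse cell line, was measured on 8 Clariom S arrays, 2 in each of 4 groups. BTEE is an ethanol extract of the microalga Botryococcus terribilis. BTEE-treated cells were exposed to the extract (0.2 mg/mL) over 24 h. For the viability assay, the paper states an absence of significant cytotoxicity only for lower doses. LPS, a bacterial cell wall component that activates macrophages, was then given at 1 ng/mL for 17 h or 6 h. Control cells received LPS for 17 h or 6 h without BTEE, and the sources used here do not say whether they received the ethanol in which the extract was made. Every array is therefore of LPS-stimulated cells of a single line, and a value from unstimulated cells was not analysed here. Nothing in the labels states that duplicate arrays hold RNA of separate cultures, and the p-values therefore rest on a spread that may be technical.

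NRF2 is held at a low level in resting cells because KEAP1 binds it and passes it to a ubiquitin ligase. Electrophiles and oxidants modify KEAP1, NRF2 then accumulates in the nucleus, and with small MAF proteins it binds antioxidant response elements near genes for glutathione and thioredoxin enzymes, for enzymes that supply NADPH, for heme breakdown and iron storage, and for detoxification. The control acts largely on the NRF2 protein, which an RNA array does not measure. In macrophages, heme oxygenase and the cystine transporter are among the target genes known to be induced after LPS.

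The values are log2 signals, so a difference of 1 is a doubling. Signals of different genes rest on different probes and are not compared with each other. The arrays had medians of 5.25 to 5.28, and 2 arrays of the same group correlated at 0.9984 to 0.9987 over all probe sets, BTEE and control arrays of 1 time at 0.9942 to 0.9948, and arrays of different times at 0.9755 to 0.9799. Over the 37 genes and 4 groups, the SD of the 2 arrays had a median of 0.0354 and a maximum of 0.44, and 2 of 148 SDs were over 0.2. The mean signal over the 8 arrays had a median of 13.81 over the 37 genes, and 34 had a mean of at least 6. The signals of Nqo1 (mean 3.74), Mgst1 (4.61) and Gsta4 (5.09) lay below the array medians.

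The labelled cell type was checked with marker genes. The 10 macrophage markers had median log2 signals of 15.3 to 15.7 in the 4 groups, with Mrc1 the lowest of them. The markers of B cells had medians of 3.28 to 3.58, those of T cells 4.19 to 4.6, those of neutrophils 3.3 to 3.65 and those of fibroblasts 3.82 to 4.07. Against controls, 2 of the 10 macrophage markers were lower and 1 was higher with BTEE at 17 h, and 4 were lower and 0 higher at 6 h. Of all symbols, the 6 h comparison had 15.7% lower and 14.5% higher. Among symbols with a mean signal of at least 6, its shares were 20.3% and 16.5%. The 17 h comparison had 13.6% of all symbols lower and 14.9% higher, and 16.7% and 22% of the brighter ones. The part of these marker differences in the results on the 37 genes was not tested. In RNA of a whole culture, fewer cells of a kind and less RNA per cell cannot be told apart.

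Against control cells, BTEE-treated cells had some of these genes higher and some lower at each time. At 17 h, 4 of 6 peroxiredoxin genes, thioredoxin 1, the lipid peroxide-reducing Gpx4, biliverdin reductase A and Taldo1 were higher. Nfe2l2, glutaredoxin, mitochondrial thioredoxin and catalase were lower. At 6 h, Sqstm1, Hmox1, Blvrb, catalase, the glutathione genes Slc7a11, Gclm and Gsr, and G6pdx were higher. Nfe2l2, Keap1, Blvra, Gpx4 and Taldo1 were lower. Of these, Blvra, Gpx4 and Taldo1 were no longer called lower at 6 h with quantile normalization or without any 1 array. The 6 h calls of Nfe2l2, Keap1, Slc7a11, Gclm, Gsr and G6pdx were lost without at least 1 array. So were the 17 h calls of Txn1, Prdx2, Prdx4 and Prdx5. With the added error described below, no BTEE call at either time was left. Nqo1 was called higher at both times, but at dim signals below the array medians. The differences were small, and the largest in size was 0.73 at 6 h (Sqstm1, 1.65-fold) and -0.66 at 17 h (Glrx, 1.57-fold lower).

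With limma over all symbols, a gene is called higher or lower here where its Benjamini-Hochberg adjusted p was under 0.05. At 17 h, 9 of the 37 genes were higher and 4 lower with BTEE, where 14.9% of all symbols were higher and 13.6% lower. The 13 genes called were 35.1% of them, beside 28.5% of all symbols in either direction and 38.7% of the 9387 symbols with a mean signal of at least 6. At 6 h, 9 were higher and 5 lower, where 14.5% of all symbols were higher and 15.7% lower, and the 14 called were 37.8%, beside 30.2% of all symbols and 36.8% of the brighter ones. With quantile normalization on top of the deposited values, 11 genes were higher and 2 lower at 6 h, and the share of all symbols under that setting is not given here. Without that added step, the share of genes called was at both times close to that of all symbols of such signal. The median difference over the 37 genes was 0.06 at 17 h, beside 0.005 over all symbols, and 0.16 at 6 h, beside -0.005.

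The 2 BTEE arrays lay above both control arrays for 17 genes and below them for 14 at 17 h, and above for 21 and below for 9 at 6 h. Such separation of the arrays was found for 66.5% of all symbols at 17 h and for 67.2% at 6 h. Among symbols with a mean signal of at least 6 it was found for 77% at 17 h and 75.7% at 6 h. With the fold of 1.5 and the unadjusted p under 0.05 that the methods use for differentially expressed genes, 1 gene was higher (Gpx4) and 3 were lower (Nfe2l2, Glrx, Txn2) at 17 h, and 2 were higher (Sqstm1, Blvrb) and 0 lower at 6 h. By this rule 8.79% of all symbols were called at 17 h, 4.59% higher and 4.19% lower, and 10.4% at 6 h, 5.04% higher and 5.38% lower.

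Arrays of a group can share variation that the spread between duplicates does not show. The 1442 sensory receptor genes (olfactory, vomeronasal and taste receptors), with a median log2 signal of 3.62, had BTEE minus control differences with an SD of 0.357 at 17 h and 0.38 at 6 h, where the spread between duplicates gave 0.205. With this excess added to each error, 0 of the 37 genes were called by limma at either time, or for the difference between the times, and 0 of the 37 had an unadjusted p under 0.05 at 17 h or at 6 h. The same excess was added to every symbol, whatever its signal. Whether it holds at the signals of the 37 genes, whose median was 13.81, was not tested. Without each array in turn, 8 of the 13 calls at 17 h and 4 of the 14 at 6 h held in every fit.

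**Figure D1:**
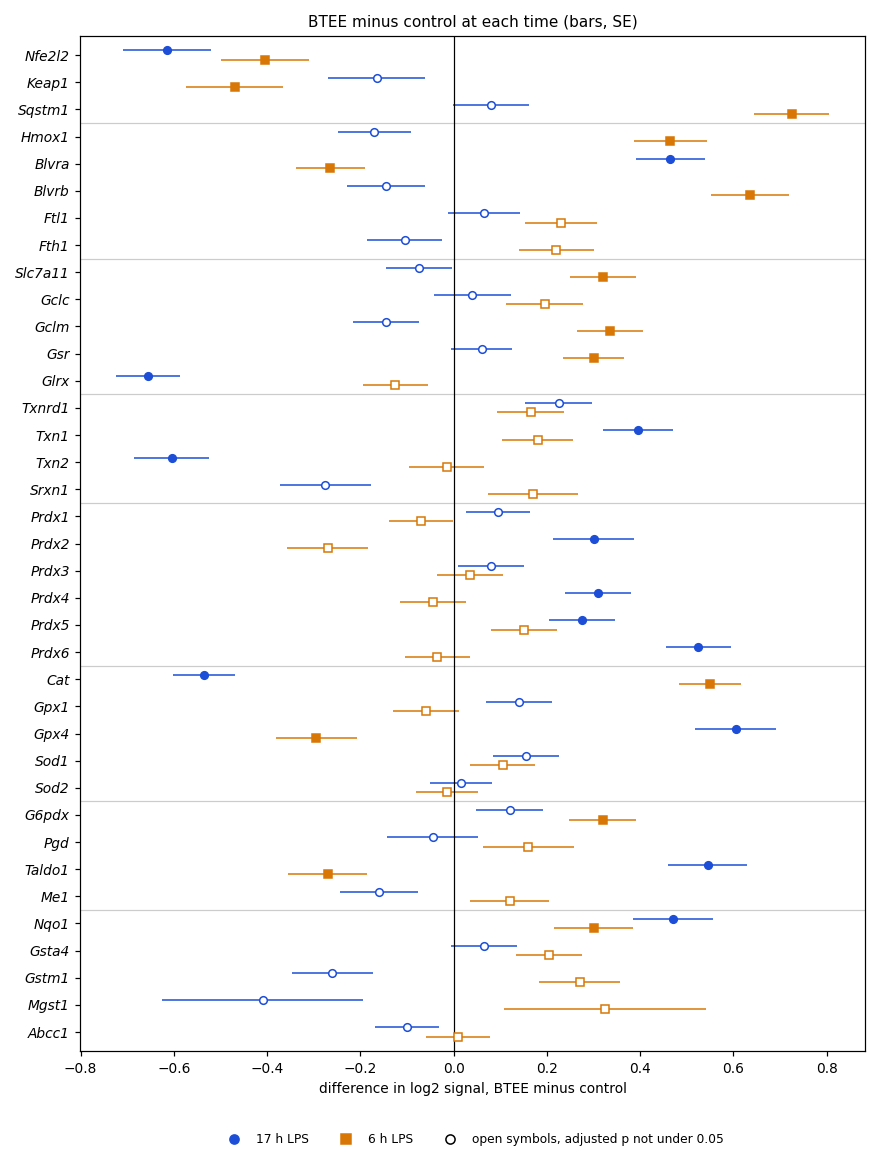
The difference in log2 signal, BTEE minus control, is plotted for each of the 37 genes, grouped by role, at 17 h (circles) and 6 h (squares) of LPS, with bars of 1 SE, and open symbols mark genes with an adjusted p not under 0.05. Nfe2l2 lies to the left of 0 and Nqo1 to the right at both times, while Cat lies at -0.54 at 17 h and 0.55 at 6 h.

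Nfe2l2 itself (chr2:75675513-75704663, GRCm38) was the only member called lower at both times. Its signal was 8.36 and 8.43 in BTEE arrays of 17 h, against 8.95 and 9.07 in control arrays. After 6 h of LPS it was 8.40 and 8.27 in BTEE arrays, against 8.83 and 8.65 in control arrays. At both times the BTEE arrays lay below both control arrays. The difference was -0.62 (SE 0.09, adjusted p = 0.00515) at 17 h, a 1.53-fold lower signal, and -0.41 (SE 0.09, adjusted p = 0.0194) at 6 h. The 2 effects differed by -0.21, which was not called (adjusted p = 0.267). The call at 17 h held without each array, and that at 6 h was lost without the second BTEE array or the first control array, with differences of -0.50 to -0.32 over the 4 fits.

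Keap1 (chr9:21229730-21239332), the NRF2 repressor, moved with time far more than with BTEE. Its signal was 8.58 and 8.62 in BTEE arrays of 17 h, against 8.89 and 8.64 in control arrays. On the 6 h arrays it was 10.70 and 10.53 in BTEE arrays, against 11.06 and 11.11 in control arrays. BTEE arrays were below the control arrays at both times, but by only 0.02 for the nearest pair at 17 h. The difference was -0.17 (SE 0.10, adjusted p = 0.274) at 17 h, with a 95% interval of -0.41 to 0.08, and -0.47 (SE 0.10, adjusted p = 0.0162) at 6 h. The call at 6 h was lost without the second BTEE array or either control array, with differences of -0.56 to -0.39.

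Sqstm1 (chr11:50200152-50210820) encodes p62, an autophagy receptor that draws KEAP1 away from NRF2 and is itself an NRF2 target. Its signal was 16.47 and 16.37 in BTEE arrays of 17 h, against 16.36 and 16.32 in control arrays. At 6 h it was 14.73 on both BTEE arrays, against 14.08 and 13.93 in control arrays. The 4 arrays of 17 h spanned 0.15, and the 6 h BTEE arrays stood clear of the controls. The difference was 0.08 (SE 0.08, adjusted p = 0.492) at 17 h and 0.73 (SE 0.08, adjusted p = 0.00173) at 6 h. The effect at 17 h was lower than that at 6 h by a called difference of -0.65 (adjusted p = 0.00719), and both the 6 h call and this one held without each array.

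**Figure D2:**
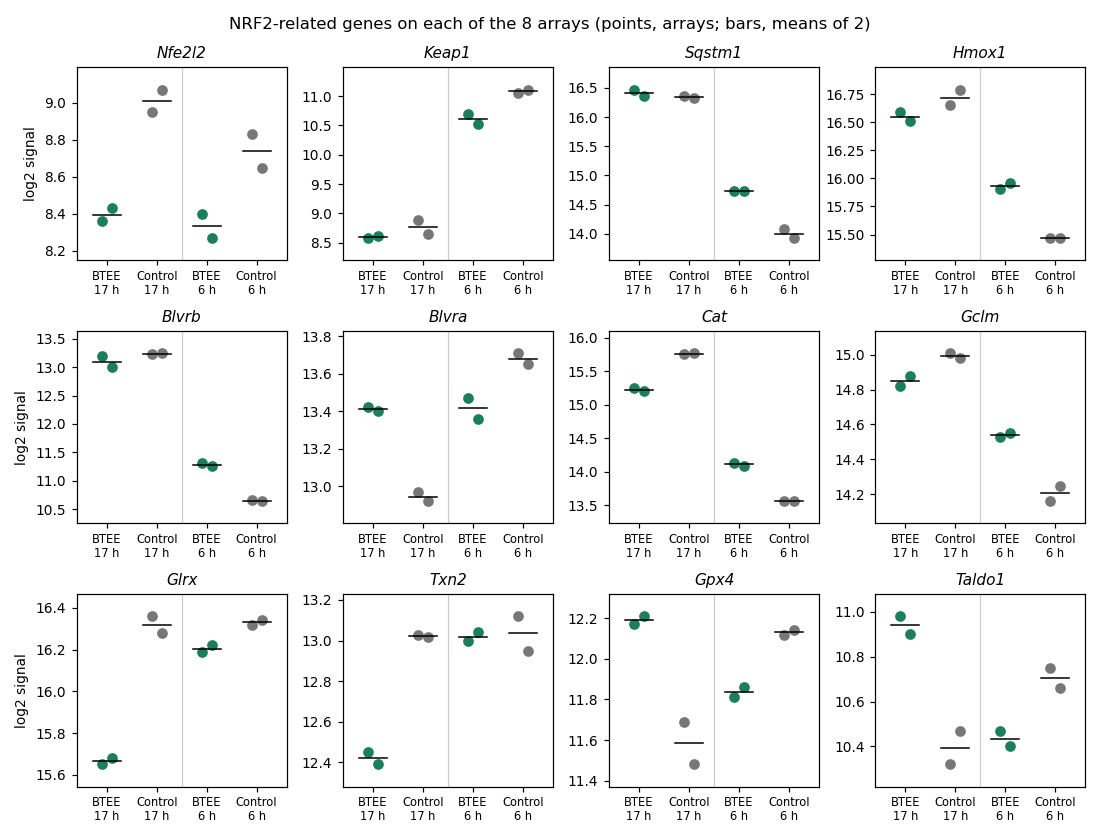
Log2 signal of 12 of the genes on each of the 8 arrays is plotted, with BTEE arrays in green and control arrays in grey, 17 h to the left of 6 h in each panel, and black bars at the mean of 2 arrays; the vertical axes differ and do not start at 0. Sqstm1, Blvrb, Cat and Gclm were lower at 6 h than at 17 h in both groups, with BTEE above control at 6 h, while the BTEE arrays of Glrx and Txn2 at 17 h lay below the other 6 arrays.

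Of the 5 heme and iron storage genes, 1 was called higher and 0 lower at 17 h, and 2 were higher and 1 lower at 6 h. Among symbols with a mean signal of at least 6, 22% were higher and 16.7% lower at 17 h, and 16.5% and 20.3% at 6 h. These shares apply to the counts of each role below, and whether so few genes depart from them was not tested. Hmox1 (chr8:75093618-75100593), heme oxygenase 1, opens the heme ring and releases iron, carbon monoxide and biliverdin. Its signal was 16.59 and 16.51 in BTEE arrays of 17 h, against 16.65 and 16.79 in control arrays. After 6 h of LPS it was 15.91 and 15.96 in BTEE arrays, against 15.47 on both control arrays. The order of the groups was opposite at the 2 times, with the BTEE arrays below the controls at 17 h and above them at 6 h. The difference was -0.17 (SE 0.08, adjusted p = 0.148) at 17 h and 0.47 (SE 0.08, adjusted p = 0.00631) at 6 h. The effects differed by -0.64 (adjusted p = 0.0069), and this call and the one at 6 h held without each array.

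The 2 genes named as biliverdin reductases moved in opposite ways. Blvrb (chr7:27447978-27465981) had 13.19 and 13.00 in BTEE arrays of 17 h, against 13.23 and 13.25 in control arrays. On the 6 h arrays it had 11.31 and 11.26 in BTEE arrays, against 10.66 and 10.64 in control arrays. Its BTEE arrays were above the controls at 6 h by 0.60 between the nearest arrays, where duplicates differed by 0.05 and 0.02. The difference was -0.15 (SE 0.08, adjusted p = 0.232) at 17 h and 0.64 (SE 0.08, adjusted p = 0.00282) at 6 h, a 1.55-fold higher signal, and the effects differed by -0.78 (adjusted p = 0.00432). Blvra had 13.42 and 13.40 in BTEE arrays of 17 h, against 12.97 and 12.92 in control arrays, and at 6 h 13.47 and 13.36 in BTEE arrays, against 13.71 and 13.65 in control arrays. Its level in BTEE arrays was nearly the same at both times, between the 2 levels of the controls. The difference was 0.47 (SE 0.07, adjusted p = 0.00567) at 17 h and -0.27 (SE 0.07, adjusted p = 0.0344) at 6 h, and the effects differed by 0.73 (adjusted p = 0.00368). The 6 h call of Blvra was lost without any 1 of the 4 arrays, with differences of -0.32 to -0.21, and with quantile normalization, while the other calls of the pair held without each array.

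The ferritin chains Ftl1 and Fth1, which store iron, were not called between BTEE and control. Ftl1 differed by 0.07 at 17 h and 0.23 at 6 h (adjusted p = 0.0626), and Fth1 by -0.11 at 17 h and 0.22 at 6 h (adjusted p = 0.0769).

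Among the 5 genes of cystine uptake and the glutathione cycle, 0 were called higher and 1 lower at 17 h, and 3 were higher and 0 lower at 6 h. Gclm, the regulatory subunit of the ligase that makes the first intermediate of glutathione, had 14.82 and 14.88 in BTEE arrays of 17 h, against 15.01 and 14.98 in control arrays. At 6 h it had 14.53 and 14.55 in BTEE arrays, against 14.16 and 14.25 in control arrays. Its BTEE arrays lay below the controls at 17 h and above them at 6 h. The difference was -0.15 at 17 h, which was not called, and 0.34 (SE 0.07, adjusted p = 0.0142) at 6 h, and the effects differed by -0.48 (adjusted p = 0.0128). The 6 h call was lost without either BTEE array or the first control array, with differences of 0.29 to 0.38.

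Slc7a11, the transporter that brings in cystine for glutathione, had 16.41 and 16.47 in BTEE arrays of 17 h, against 16.50 and 16.53 in control arrays. After 6 h of LPS it had 15.36 and 15.30 in BTEE arrays, against 14.98 and 15.04 in control arrays. The BTEE arrays were the lower ones at 17 h and the higher ones at 6 h. The difference was -0.08 at 17 h, which was not called, and 0.32 (SE 0.07, adjusted p = 0.016) at 6 h, and the effects differed by -0.40 (adjusted p = 0.0241). Without the first BTEE array or the first control array the 6 h call was lost, with differences of 0.29 to 0.35. The difference between the times was lost in 5 of the 8 fits without 1 array, with values of -0.43 to -0.37.

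Gsr, which reduces oxidised glutathione with NADPH, had 14.35 and 14.33 in BTEE arrays of 17 h, against 14.29 and 14.27 in control arrays, and 14.40 on both BTEE arrays of 6 h, against 14.11 and 14.09 in control arrays. Its difference at 6 h was 0.30 (SE 0.06, adjusted p = 0.0153), a call lost without any 1 of the 4 arrays at differences of 0.29 to 0.31. Glrx, glutaredoxin, uses glutathione to free proteins of mixed disulfides. It had 15.65 and 15.68 in BTEE arrays of 17 h, against 16.36 and 16.28 in control arrays, and 16.19 and 16.22 in BTEE arrays of 6 h, against 16.32 and 16.34 in control arrays. The 17 h BTEE arrays lay below all 6 others. The difference was -0.66 (SE 0.07, adjusted p = 0.00176) at 17 h and -0.13 at 6 h, which was not called, and the effects differed by -0.53 (adjusted p = 0.00813). Both calls of Glrx held without each array. Gclc, the catalytic subunit of the ligase, was not called at either time, at 0.04 and 0.20.

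In the thioredoxin system, 1 of 4 genes was called higher and 1 lower at 17 h, and 0 of 4 at 6 h. Txn1, the cytosolic thioredoxin that keeps protein thiols reduced, had 17.09 and 17.06 in BTEE arrays of 17 h, against 16.62 and 16.74 in control arrays. On the 6 h arrays it had 17.22 and 17.30 in BTEE arrays, against 17.08 on both control arrays. The BTEE arrays were above the controls at both times. The difference was 0.40 (SE 0.08, adjusted p = 0.01) at 17 h and 0.18 (adjusted p = 0.112) at 6 h. The 17 h call was lost without the first control array (adjusted p = 0.0599), with differences of 0.34 to 0.46 over the 4 fits.

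Txn2, the mitochondrial thioredoxin, went the other way at 17 h. It had 12.45 and 12.39 in BTEE arrays of 17 h, against 13.03 and 13.02 in control arrays, and 13.00 and 13.04 in BTEE arrays of 6 h, against 13.12 and 12.95 in control arrays. The arrays of 6 h overlapped, and those of 17 h stood 0.57 apart. The difference was -0.61 (SE 0.08, adjusted p = 0.00329) at 17 h and -0.02 at 6 h, with a 95% interval of -0.21 to 0.18. The effects differed by -0.59 (adjusted p = 0.00974), and both calls held without each array.

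Srxn1, sulfiredoxin, repairs overoxidised peroxiredoxins and is a widely used NRF2 readout. It had 9.49 on both BTEE arrays of 17 h, against 9.81 and 9.72 in control arrays, and 10.00 and 10.21 in BTEE arrays of 6 h, against 9.86 and 10.01 in control arrays. Neither difference was called, at 17 h (-0.28, adjusted p = 0.0734) or at 6 h (0.17). The effects differed by -0.45 (adjusted p = 0.0459), a call that was lost in 7 of the 8 fits without 1 array, with values of -0.55 to -0.34. Txnrd1, thioredoxin reductase, was not called, at 0.23 (adjusted p = 0.053) at 17 h and 0.17 (adjusted p = 0.121) at 6 h.

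Of the 6 peroxiredoxin genes, whose proteins reduce hydrogen peroxide and lipid peroxides with thiols, 4 were called higher and 0 lower at 17 h, and 0 were called at 6 h. At 17 h, 22% of all symbols with a mean signal of at least 6 were higher and 16.7% lower. Prdx6 had the largest difference among the peroxiredoxins. It had 9.96 and 10.02 in BTEE arrays of 17 h, against 9.49 and 9.44 in control arrays, and 9.20 and 9.18 in BTEE arrays of 6 h, against 9.20 and 9.25 in control arrays. The groups met at 6 h and were apart at 17 h. The difference was 0.53 (SE 0.07, adjusted p = 0.00314) at 17 h and -0.04 at 6 h, and the effects differed by 0.56 (adjusted p = 0.0069). Both calls held without each array.

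Prdx2 had 14.90 and 14.86 in BTEE arrays of 17 h, against 14.51 and 14.65 in control arrays, and 15.02 and 15.16 in BTEE arrays of 6 h, against 15.32 and 15.40 in control arrays. Its BTEE arrays lay above the controls at 17 h and below them at 6 h. The difference was 0.30 (SE 0.09, adjusted p = 0.0401) at 17 h and -0.27 (adjusted p = 0.0532) at 6 h, and the effects differed by 0.57 (adjusted p = 0.0138). Prdx4, an enzyme of the endoplasmic reticulum, had 12.02 and 12.07 in BTEE arrays of 17 h, against 11.70 and 11.77 in control arrays, and 12.56 and 12.63 in BTEE arrays of 6 h, against 12.65 and 12.63 in control arrays. The control arrays of Prdx4 were the lowest at 17 h, and the groups met at 6 h. Its difference was 0.31 (SE 0.07, adjusted p = 0.0189) at 17 h, against an uncalled -0.05 at 6 h. The effects differed by 0.36 (adjusted p = 0.0353), a call lost without any 1 of the 8 arrays, with values of 0.32 to 0.39. Prdx5 differed by 0.28 at 17 h (SE 0.07, adjusted p = 0.0277), with 15.10 and 15.01 in BTEE arrays, against 14.79 and 14.77 in control arrays. The 17 h calls of Prdx2, Prdx4 and Prdx5 were lost without any 1 of the 4 arrays, with differences of 0.23 to 0.37 for Prdx2, 0.28 to 0.35 for Prdx4 and 0.23 to 0.32 for Prdx5. Prdx1 and Prdx3 were not called at either time.

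Of the genes of catalase, the glutathione peroxidases and the superoxide dismutases, Cat and Gpx4 were called at both times, each with opposite directions, and they were opposite to each other. Cat (chr2:103453904-103485153), catalase, breaks down hydrogen peroxide in peroxisomes. It had 15.25 and 15.20 in BTEE arrays of 17 h, against 15.75 and 15.77 in control arrays. At 6 h it had 14.13 and 14.09 in BTEE arrays, against 13.56 on both control arrays. The BTEE arrays lay between the 17 h and the 6 h controls at both times. The difference was -0.54 (SE 0.07, adjusted p = 0.00272) at 17 h, a 1.45-fold lower signal, and 0.55 (SE 0.07, adjusted p = 0.00224) at 6 h, a 1.46-fold higher one. The effects differed by -1.09 (adjusted p = 0.00116), the largest such difference of the 37 genes, and all 3 calls held without each array.

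Gpx4 (chr10:80047166-80056439) encodes the glutathione peroxidase that reduces lipid peroxides in membranes. It had 12.17 and 12.21 in BTEE arrays of 17 h, against 11.69 and 11.48 in control arrays. After 6 h of LPS it had 11.81 and 11.86 in BTEE arrays, against 12.12 and 12.14 in control arrays. The BTEE arrays lay above the controls at 17 h and below them at 6 h. The difference was 0.61 (SE 0.09, adjusted p = 0.0041) at 17 h and -0.30 (SE 0.09, adjusted p = 0.0411) at 6 h, and the effects differed by 0.90 (adjusted p = 0.00312). The 6 h call was lost without any 1 of the 4 arrays, at differences of -0.32 to -0.27, and under quantile normalization, while the other calls of Gpx4 held without each array.

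Gpx1, the cytosolic glutathione peroxidase, and both superoxide dismutases were not called at either time. Sod2, the mitochondrial dismutase, had 16.26 and 16.29 in BTEE arrays of 17 h, against 16.28 and 16.24 in control arrays, and 16.25 and 16.26 in BTEE arrays of 6 h, against 16.28 and 16.26 in control arrays. Its 8 arrays spanned 0.05, and its difference at 6 h was -0.02, with a 95% interval of -0.17 to 0.14.

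NADPH feeds glutathione and thioredoxin reduction. Of the 4 NADPH-supplying or pentose phosphate genes that could be measured, 1 was called higher at 17 h and 1 higher and 1 lower at 6 h. Taldo1, transaldolase, had 10.98 and 10.90 in BTEE arrays of 17 h, against 10.32 and 10.47 in control arrays, and 10.47 and 10.40 in BTEE arrays of 6 h, against 10.75 and 10.66 in control arrays. As with Gpx4, the order of the groups was opposite at the 2 times. The difference was 0.55 (SE 0.08, adjusted p = 0.0052) at 17 h and -0.27 (SE 0.08, adjusted p = 0.049) at 6 h, and the effects differed by 0.82 (adjusted p = 0.0039). The 6 h call of Taldo1 was lost without any 1 of the 4 arrays (differences of -0.32 to -0.23) and under quantile normalization. G6pdx, the rate-setting first enzyme of the pathway, had 16.16 and 16.23 in BTEE arrays of 17 h, against 16.09 and 16.06 in control arrays, and 16.39 and 16.30 in BTEE arrays of 6 h, against 16.03 and 16.02 in control arrays. The BTEE arrays lay above the controls at both times. Its difference was 0.12 at 17 h, which was not called, and 0.32 (SE 0.07, adjusted p = 0.0168) at 6 h, a call lost without the first BTEE array or either control array at differences of 0.28 to 0.37. Pgd and Me1 were not called.

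Among the 5 detoxification and export genes, Nqo1 was called higher at both times, the only one of the 37 genes to be so. Nqo1 (chr8:107388225-107403205), a quinone reductase, is the classical NRF2 target. It had 4.15 and 4.27 in BTEE arrays of 17 h, against 3.66 and 3.82 in control arrays, and 3.62 and 3.68 in BTEE arrays of 6 h, against 3.36 and 3.34 in control arrays. BTEE arrays were above both controls at each time, and all 8 signals were below the medians of their arrays. They lay at the level of the sensory receptor genes, whose median signal was 3.62, so that the fitted differences are not a measure of how much Nqo1 RNA changed. The difference was 0.47 (SE 0.09, adjusted p = 0.00844) at 17 h and 0.30 (SE 0.09, adjusted p = 0.0364) at 6 h, and the 2 effects did not differ by a called amount (0.17, adjusted p = 0.314). The 17 h call was lost without the first control array (adjusted p = 0.0503), and the 6 h call without any 1 of the 4 arrays, at differences of 0.39 to 0.55 and 0.27 to 0.33. The SD of the same difference over the sensory receptor genes was 0.357 at 17 h and 0.38 at 6 h.

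Gstm1, a glutathione transferase, was called at neither time. It had 9.46 and 9.53 in BTEE arrays of 17 h, against 9.76 and 9.75 in control arrays, and 9.11 and 9.08 in BTEE arrays of 6 h, against 8.93 and 8.72 in control arrays. The differences were -0.26 (adjusted p = 0.0643) at 17 h and 0.27 (adjusted p = 0.0554) at 6 h. The effects differed by -0.53 (adjusted p = 0.0184), a call lost in 4 of the 8 fits without 1 array, with values of -0.64 to -0.43. Mgst1, a membrane glutathione transferase with a dim probe set, had the widest duplicates, at 4.32 and 4.78 in BTEE arrays of 17 h and 5.27 and 4.65 in control arrays. Gsta4 and the glutathione conjugate exporter Abcc1 were not called.

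In the test of the difference itself, the BTEE effect at 17 h was called lower than that at 6 h for 10 genes and higher for 6, which was 43.2% of the 37, beside 31.4% of all symbols (14.8% lower and 16.7% higher) and 40.5% of those with a mean signal of at least 6. The 10 were Cat, Blvrb, Sqstm1, Hmox1, Txn2, Glrx, Gstm1, Gclm, Srxn1 and Slc7a11, and the 6 were Gpx4, Taldo1, Blvra, Prdx2, Prdx6 and Prdx4. Of the 16 calls, 12 held without each array. Of genes called at both times, 1 was higher at both (Nqo1, at its dim signal), 1 was lower at both (Nfe2l2), 3 had a higher signal at 17 h and a lower one at 6 h (Blvra, Gpx4, Taldo1), and Cat was lower at 17 h but higher at 6 h. The 6 h calls of Blvra, Gpx4 and Taldo1 were lost with quantile normalization and with the 4 arrays of the 2 groups alone. A further 16 were called at neither time. How many of all symbols fell into each of these combinations was not counted.

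**Figure D3:**
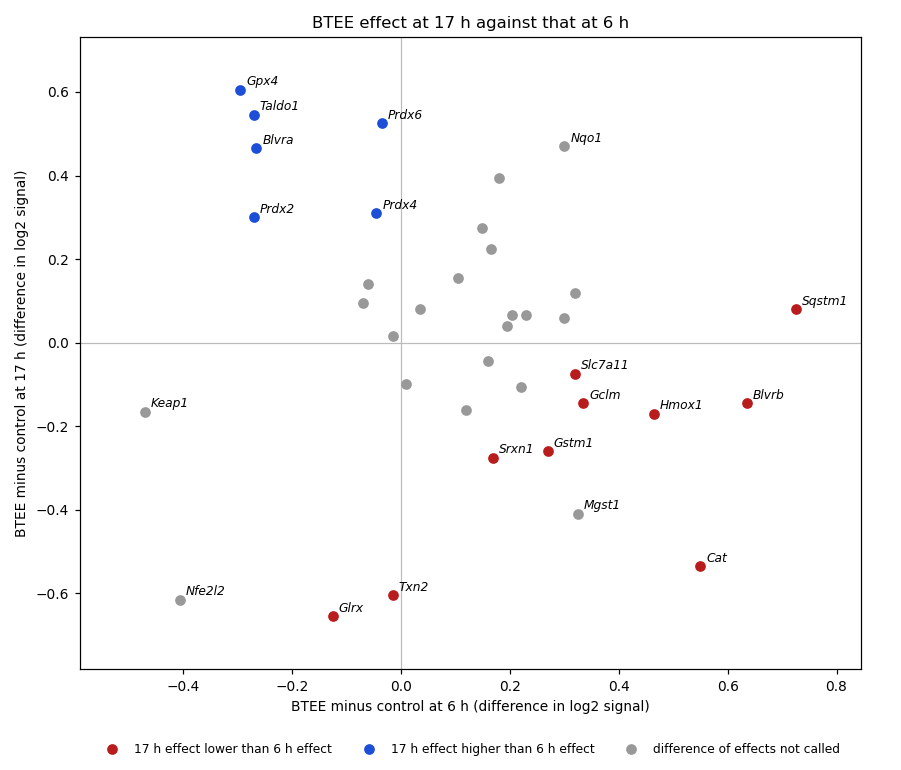
Each point is 1 of the 37 genes, with the BTEE minus control difference in log2 signal at 17 h on the vertical axis and at 6 h on the horizontal axis. Red points are the 10 genes whose effect was called lower at 17 h than at 6 h and blue points the 6 whose effect was called higher, and Nfe2l2 and Nqo1 are grey.

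The comparison of 17 h with 6 h of LPS within a group asks how these genes changed with time after stimulation. It uses the same arrays as the BTEE comparisons and is no independent support for them. The changes were larger than those with BTEE. In BTEE-treated cells 16 of the 37 genes were higher and 8 lower at 17 h than at 6 h (64.9%, beside 47.6% of all symbols, 23.6% of them higher and 24% lower, and 70.8% of those with a mean signal of at least 6). In control cells 18 were higher and 10 lower (75.7%, beside 52.3% of all symbols, 25.8% of them higher and 26.4% lower, and 75.5% of the brighter ones).

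The largest changes with time were those of Blvrb, Sqstm1, Keap1 and Cat. Blvrb was higher at 17 h by 1.81 in BTEE-treated cells (3.51-fold) and by 2.59 in control cells (6.02-fold, adjusted p = 5.44e-07). Sqstm1 was higher by 1.69 (3.23-fold) in BTEE-treated cells and by 2.34 (5.05-fold, adjusted p = 7.79e-07) in control cells. Keap1 fell by 2.02 (4.04-fold) in BTEE-treated cells and by 2.32 (4.99-fold, adjusted p = 2.33e-06) in control cells. Cat was higher by 1.12 in BTEE-treated cells and by 2.20 in control cells (4.59-fold, adjusted p = 4.33e-07). With that added error of the sensory receptor genes, the calls of Keap1, Sqstm1 and Blvrb held in both groups, and those of Cat and Slc7a11 held in control cells.

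Hmox1, Slc7a11 and Gclm were higher at 17 h in both groups. Hmox1 rose by 0.62 in BTEE-treated cells and by 1.25 in control cells (adjusted p = 1.1e-05), and Slc7a11 by 1.11 in BTEE-treated cells and 1.51 in control cells. Gclm rose by 0.31 in BTEE-treated cells, a call lost without the second 17 h array (0.28 to 0.34 over the 4 fits), and by 0.79 in control cells. Of all symbols with a mean signal of at least 6, 34.3% were higher and 36.5% lower with time in BTEE-treated cells. In control cells the shares were 34.7% and 40.8%. Whether the few genes of each role depart from these shares was not tested. Of the 5 cystine and glutathione genes, 2 were higher and 1 lower (Glrx) in BTEE-treated cells, and 3 were higher and 0 lower in control cells. Of the heme and iron storage genes, 3 of 5 were higher and 0 lower in BTEE-treated cells, and 4 were higher and 1 lower (Blvra) in control cells. Of the detoxification and export genes, 4 of 5 were higher in BTEE-treated cells and 5 of 5 in control cells. These counts include dim genes. Nqo1 was counted in both groups, at 0.56 in BTEE-treated cells and 0.39 in control cells, with signals at the level of the sensory receptor genes. Other calls of dim genes were not stable. Gsta4 in BTEE-treated cells (0.24) was lost without any 1 of the 4 arrays, at 0.21 to 0.28, and Mgst1 in control cells (0.66) was lost without the first 17 h array or either 6 h array, at 0.35 to 0.97, and with the 4 arrays alone, the replicate block or no moderation. The thioredoxin genes had 3 of 4 lower and 0 higher in BTEE-treated cells and 2 of 4 lower and 0 higher in control cells, with Txnrd1 at -0.90 in BTEE-treated cells and -0.96 in control cells. Gpx1 was lower by a difference of -1.08 in BTEE-treated cells and -1.28 in control cells.

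Gpx4 and Taldo1 were called in opposite directions with time. Gpx4 changed by 0.36 in BTEE-treated cells and by -0.55 in control cells, and Taldo1 by 0.51 in BTEE-treated cells and by -0.31 in control cells. The difference between groups in these changes is the same contrast as the difference between the BTEE effects above, 0.90 for Gpx4 and 0.82 for Taldo1. Without some array, the calls of Gpx4 in BTEE-treated cells (0.33 to 0.38) and of Taldo1 in control cells (-0.39 to -0.24) were lost. Over all 37 genes, 14 were called higher and 5 lower with time in both groups, and 6 in neither. How many of all symbols were called in both groups was not counted. Of those with a mean signal of at least 6, 70.8% were called in BTEE-treated cells and 75.5% in control cells.

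Nfe2l2 changed little with time, by 0.06 in BTEE-treated cells, which was not called, and by 0.27 in control cells (adjusted p = 0.0471), a call lost in 3 of the 4 fits without 1 array (0.18 to 0.36). Blvra changed by -0.01 in BTEE-treated cells and by -0.74 in control cells. Glrx and Txn2 had called falls with time of -0.54 and -0.60 in BTEE-treated cells, and neither was called in control cells.

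**Figure D4:**
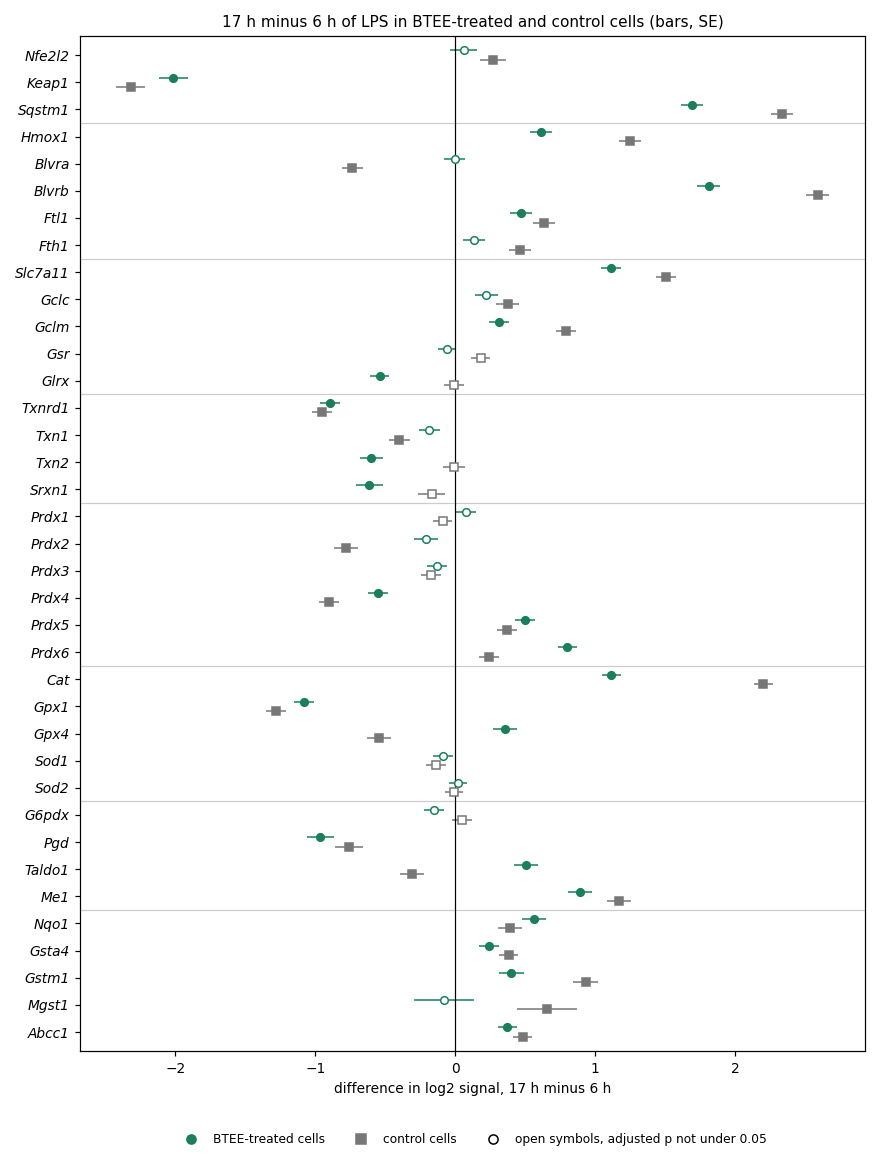
The difference in log2 signal, 17 h minus 6 h of LPS, is plotted for each of the 37 genes in BTEE-treated cells (circles) and control cells (squares), with bars of 1 SE, and open symbols mark genes with an adjusted p not under 0.05. Keap1 lies farthest to the left and Blvrb farthest to the right in both groups, and for Gpx4 and Taldo1 the 2 groups lie on opposite sides of 0.

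Other genes of the same pathways were taken from lists of 104 genes, of which 100 were found. Of these, 16 were higher and 12 lower with BTEE at 17 h (28%), and 15 were higher and 19 lower at 6 h (34%), both close to the 28.5% and 30.2% of all symbols. Beside the counts of each list below, 14.9% of all symbols were higher and 13.6% lower at 17 h, and 14.5% and 15.7% at 6 h. Among 17 NRF2 partners and regulators, 2 were higher and 4 lower at 17 h, and 1 was higher and 4 lower at 6 h. Bach2, a repressor that binds the same elements as NRF2, differed by -0.47 at 17 h and -0.58 at 6 h, at signals of 5.29 to 6.22 that were close to the array medians. The sestrin Sesn2 was lower at 17 h by a difference of -0.82, and Mafg, a small MAF partner of NRF2, was lower at 6 h at -0.51. Maff, another small MAF gene, was also called lower at 6 h, where its signals of 4.04 and 4.58 in BTEE arrays and 5.43 and 4.91 in control arrays had group means below the array medians, and no size is given for it.

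Of 15 other heme and iron genes, 1 was higher and 2 lower at 17 h, and 6 were higher and 3 lower at 6 h. Slc48a1, a heme transporter of the endolysosome, had 12.95 and 12.84 in BTEE arrays of 17 h, against 13.33 and 13.34 in control arrays, and 12.83 and 12.78 in BTEE arrays of 6 h, against 12.28 and 12.36 in control arrays. As with Hmox1, its BTEE arrays were below the controls at 17 h and above them at 6 h. The differences were -0.44 (adjusted p = 0.00695) and 0.49 (adjusted p = 0.00473). Alas1, the first enzyme of heme synthesis, was higher by 0.58 at 6 h.

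Of 11 other NADPH-supplying genes, 3 were higher and 1 lower at 17 h, and 1 was higher and 2 lower at 6 h. Pgls, which acts between G6pdx and Pgd, had 9.80 and 9.81 in BTEE arrays of 17 h, against 9.31 and 9.14 in control arrays, and 10.56 and 10.57 in BTEE arrays of 6 h, against 11.07 and 11.09 in control arrays. Its differences were 0.58 at 17 h and -0.52 at 6 h, the same order of signs as for Taldo1. Of 28 other detoxification genes, 6 were higher and 0 lower at 17 h, led by Mgst2 at 0.74, and 5 were higher and 4 lower at 6 h, with Mgst3 at -0.81 and Gstp1 at 0.52. Of 22 other glutathione and thioredoxin genes, 4 were higher and 4 lower at 17 h. At 6 h, 2 were higher and 6 lower. The methionine sulfoxide reductases among them did not move together. At 17 h Msra and Msrb1 were higher, at 0.59 and 0.58, while Msrb3 was called lower and Msrb2 (-0.015) was not called. At 6 h Msrb1 (-0.48) and Msrb2 (-0.545) were called lower, Msrb3 was called higher and Msra (-0.235) was not called. The mean signal of Msrb3, 4.82, lay below the array medians, and no size is given for it. Of the 7 subunits of the phagocyte NADPH oxidase, the source of superoxide in macrophages, 0 were higher and 1 lower at 17 h (Rac1, -0.33), and 0 were called at 6 h.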

How the data were processed

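Arrays were normalised by the authors with SST-RMA in the Transcriptome Analysis Console, and the deposited values are log2 signals for 22206 probe sets. The series text gives version 4.0.1 of that software, and the paper another version. The authors' own comparison tables also hold fold changes, p-values and FDRs, which were not used. Of the probe sets, 836 with several symbols and 3 with none were left out, and the brightest probe set of each symbol was kept. The 8 arrays were fitted by limma 3.58.1 (R 4.3.3) with a mean for each of the 4 groups (4 residual degrees of freedom, 3.12 prior), and p-values were adjusted over 21154 symbols. SEs are limma's moderated ones. The number of arrays limits the precision: permuting 2 against 2 arrays cannot give a p under 0.333. The fit was tested on simulated data.

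The genes and lists were chosen with earlier results of these data known. Values on every array were given for the called genes with the largest differences, those called at both times or with a called difference between times, and Nfe2l2, Keap1, Hmox1 and Nqo1. For other lists, at most 4 called genes were named. Positions are those of RefSeq genes on GRCm38. Alternatives covered normalization, centring, a signal filter, the arrays fitted, a replicate block, the variance prior, probe set choice, the call rule, the error and each array left out.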

Additional observations from a re-analysis of the deposited data

Results flagged for a closer look

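For 16 of the 37 genes the BTEE effect differed between 17 h and 6 h of LPS in limma's test of the difference itself, which takes the 17 h effect minus the 6 h effect. This was 43.2% of the genes, beside 31.4% of all symbols and 40.5% of those with a mean signal of at least 6, so the share was close to that of symbols of such signal. The difference was below 0 for Cat (-1.09), Blvrb (-0.78), Sqstm1 (-0.65), Hmox1 (-0.64), Txn2 (-0.59), Glrx (-0.53), Gstm1 (-0.53), Gclm (-0.48), Srxn1 (-0.45) and Slc7a11 (-0.40). It was above 0 for Gpx4 (0.90), Taldo1 (0.82), Blvra (0.73), Prdx2 (0.57), Prdx6 (0.56) and Prdx4 (0.36). Of these, the calls of Gstm1, Srxn1, Slc7a11 and Prdx4 were lost without at least 1 array. With the excess spread of sensory receptor genes added to the error, 0 of the 16 were called by limma, and 1 of the 37 had an unadjusted p under 0.05. That excess came from dim genes, and whether it holds at brighter signals was not tested.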

How the results depend on the processing

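Over the 37 genes, the 5 comparisons and the alternatives, 2191 single values kept their direction and their side of the threshold, 209 lost a call, 73 gained one and 28 changed sign, and none of these 28 was called. No rescaling moved the median of all symbols by over 0.1. The added error of the sensory receptor genes left 0 genes higher and 0 lower with BTEE at 17 h, at 6 h and in the difference between the times (17 h minus 6 h), 2 higher and 1 lower with time in BTEE-treated cells, and 4 higher and 1 lower in control cells. The fold rule left 1 gene higher at 17 h and 2 higher and 0 lower at 6 h, 3 higher and 6 lower in the difference between the times, 7 higher with time in BTEE-treated cells and 10 in control cells. The trended robust prior gave 14 higher and 8 lower at 17 h and 15 higher at 6 h, and the signal filter, whose 34 genes exclude the 3 dim ones, 14 higher at 6 h. Shares of all symbols under the alternatives, including the fits without 1 array, are not given here. A larger or smaller count of these genes under a setting is therefore not a result about them. The genes lower at 6 h (5) numbered 2 with quantile normalization and 1 with the 4 arrays alone or without moderation. The cause was not tested.

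Deviations of same-numbered arrays from their group means were nearly uncorrelated over all symbols (r of -0.00111 to 0.0202). The labels do not say whether the arrays were paired. A pairing weak beside the noise of single probe sets would not show in these correlations. The replicate block left 3 genes lower at 6 h, against 5 without it, and moved no other count by over 1.5 times.

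Without each array in turn, 4 to 6 genes were higher and 4 lower at 17 h, and 4 to 6 higher and 0 to 2 lower at 6 h. The first control array gave the 4 at 17 h, and each of the 4 arrays brought the 5 lower at 6 h to at most 2. For the difference between times the counts were 5 higher and 7 to 9 lower, with time 13 to 15 higher and 8 lower in BTEE-treated cells, and 15 to 16 higher and 9 to 10 lower in control cells.

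With quantile normalization, values that changed sign were Fth1 (0.0191) and Sod2 (-0.00344) at 17 h, Txn2 (0.0241), Gpx1 (0.025) and Sod2 (0.00469) at 6 h, Txnrd1 (-0.0075), Sod1 (-0.0672) and Sod2 (-0.00812) in the difference between times, Blvra (0.0187) with time in BTEE-treated cells, and Glrx (0.0309), Txn2 (0.0516) and Sod2 (0.0513) in control cells. With median centring Abcc1 had -0.005 at 6 h. Leaving out 1 array gave both signs for Pgd (-0.16 to 0.07), Ftl1 (-0.005 to 0.135), Gclc (-0.01 to 0.09) and Sod2 (-0.005 to 0.035) at 17 h, Txn2 (-0.1 to 0.07) and Abcc1 (-0.01 to 0.03) at 6 h, Blvra (-0.06 to 0.05), Nfe2l2 (-0.005 to 0.125) and Mgst1 (-0.31 to 0.15) with time in BTEE-treated cells, and Txn2 (-0.095 to 0.075), Glrx (-0.05 to 0.03) and Sod2 (-0.03 to 0.01) in control cells.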
